A study of Mus musculus with 24 samples.

Results

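The response of bone marrow-derived macrophages (BMDMs) to DMXAA, a small-molecule agonist of mouse STING, was read from 4 of the 24 RNA-seq libraries of the study: control 1, control 2, DMXAA 1 and DMXAA 2 of the WT label. The libraries were chosen by cell type, genotype label and label number. Those numbered 3 were left out because they nearly lacked macrophage transcripts. The study sequenced polyA RNA from BMDMs and from dendritic cells grown from bone marrow (BMDCs), all from mice with a floxed Tmem173 gene, which encodes STING, with and without the agonist. WT cells came from Tmem173 fl/fl mice that carry no Cre, and CRE cells from Tmem173 fl/fl mice with the inducible Lzym-Creert2 allele, in which Cre follows the myeloid Lyz2 gene. Tamoxifen was given to the mice of either genotype, so the WT groups share the floxed alleles and that exposure and differ from each other in DMXAA. BMDMs were grown with medium conditioned by L929 cells, a mouse fibroblast line that secretes macrophage colony-stimulating factor. The series text gives DMXAA at 40 µM, while the methods of the study give the dose in µg/mL, so the concentration is uncertain. The length of treatment, the age of the donor mice and what the control cells received are not stated for these libraries in the sources used here. The labels do not say whether libraries 1 and 2 came from separate mice or cultures, so p-values measure the spread between these libraries, which may be technical.

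STING sits in the endoplasmic reticulum and is activated by cyclic GMP-AMP, which the enzyme cGAS makes when it meets DNA in the cytosol. DMXAA binds the same pocket of mouse STING and so bypasses cGAS. Active STING recruits the kinase TBK1, which phosphorylates the transcription factor IRF3 and drives transcription of interferon-β, and it also activates NF-kB, which drives inflammatory cytokines. Secreted interferon-β acts through its receptor and the kinases JAK1 and TYK2 on a complex that contains STAT2 and IRF9 and binds the interferon-stimulated response element (ISRE) in front of interferon-stimulated genes. Macrophages are a main source of such cytokines and present antigen to T cells.

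The 4 libraries held 16470157 to 18912887 counted reads, against 15657347 to 18912887 over all 24. The macrophage genes Lyz2 (lysozyme) and Csf1r (the receptor for macrophage colony-stimulating factor) served to leave out the libraries numbered 3, so their levels describe the choice and do not check the label. Adgre1 (F4/80) was not used in that choice. In CPM, that is counts scaled to the library total, Lyz2 stood at 13600 and 15900 in control and 5590 and 8080 under DMXAA, Csf1r at 1220 to 2040 and Adgre1 at 652 to 1080 over the 4 libraries. The WT libraries numbered 3 had 1.45 and 8.65 CPM of Lyz2. A list of 35 macrophage genes summed to 84300 and 81200 CPM in control and 61000 and 64500 CPM under DMXAA, with 1 of its 35 genes at 0 in each library. Lists of other cell types were low. The summed level of 14 lymphocyte and NK cell markers was 1.28 to 3.65 CPM with 7 to 10 markers at 0, and that of 7 mast cell and basophil markers 0.789 to 1.59 CPM with 5 or 6 at 0. The 12 neutrophil markers summed to 77.3 to 152 CPM with 1 to 4 at 0. The 12 dendritic cell markers summed to 121 to 253 CPM, of which Itgax, also expressed by macrophages, made up 98.2 to 244 CPM.

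Fibroblast-type RNA set the libraries numbered 2 apart. The median of 22 fibroblast markers was 7.34 CPM in control 1 and 3.43 CPM in DMXAA 1, but 47.7 CPM in control 2 and 45.0 CPM in DMXAA 2. Their summed level was 5300 and 8160 CPM in control and 3340 and 5210 CPM under DMXAA, most of it vimentin, which macrophages also make. At most 1 of the 22 was at 0 in any of the 4 libraries. Col1a2, which encodes a collagen chain, had 31.4 and 233 CPM in control and 17.9 and 265 CPM under DMXAA. It split the libraries by number and not by treatment, as the median of the list did, whereas the summed level was lower under DMXAA within each number. Of 20 fibroblast markers tested, 0 were called in either direction by edgeR, 0 had an unadjusted p under 0.05, and DESeq2 called 0, while with the label number as a block edgeR called 4 higher and 1 lower. The part of this RNA in the values below was not tested beyond leaving out 382 genes whose level in the number 3 libraries exceeded that in the number 1 libraries over 10-fold, of which 9 were called higher and 4 lower.

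**Figure D1:**
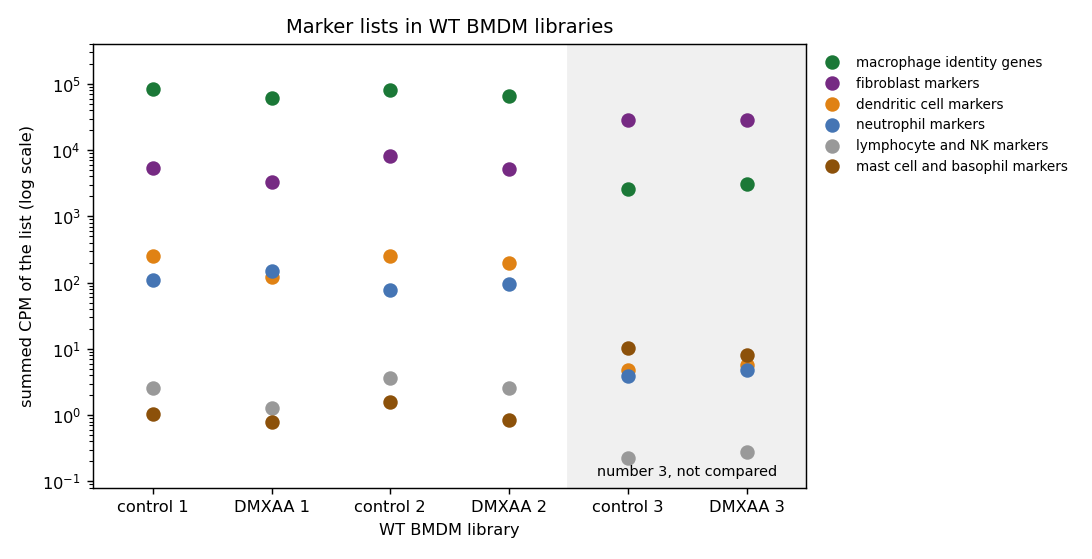
Summed level of 6 marker lists, in CPM on a log axis, in the 6 WT BMDM libraries, with 1 point per library. Those numbered 3 are shaded and do not enter the main comparison. Macrophage genes summed to 61000 to 84300 CPM in libraries 1 and 2 and to 2630 and 3100 CPM in the libraries numbered 3, where fibroblast markers reached 28300 and 28400 CPM.

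Fold changes below are log2 fold changes of DMXAA over control ± SE from edgeR's quasi-likelihood fit (n = 2 libraries per group), and p-values are adjusted by Benjamini-Hochberg over all tested genes. Levels are given as RPKM, that is counts divided by gene length and by the scaled library size, in the order 1 and 2. In bulk RNA, a lower share of a cell type and less RNA per cell cannot be told apart. Of 11120 genes tested, 1697 (15.3%) were called at an adjusted p under 0.05, 1211 higher (10.9%) and 486 lower (4.37%) under DMXAA. All 1697 had groups that did not overlap, but so did many others, since 3523 genes (31.7%) lay higher and 3473 (31.2%) lower in both DMXAA libraries than in either control. The median of all tested genes was -0.01. The response was lopsided in size, with 689 genes higher by at least 4-fold against 173 lower, and 188 higher by at least 32-fold against 2 lower. Genes called higher took 8.38% and 8.4% of all counts in control and 36.7% and 31.4% under DMXAA. Those called lower went from 3.89% and 3.12% to 0.739% and 0.909%. A gene under 1 FPKM in both controls could be tested only through its DMXAA level. There were 389 of these, 231 of them called higher, and likewise 358 under 1 FPKM in both DMXAA libraries, 119 of them called lower. Among the 10373 genes that reached 1 FPKM in at least 1 library of each group, 980 were called higher and 367 lower.

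The pairs of libraries differed in size of response. Genes called higher had a median log2 ratio of 1.94 in the pair numbered 1 and 1.62 in the pair numbered 2, and those called lower -1.4 and -1.04. Treating the number as a block raised the count to 4256 (38.3%), 2334 higher (21.0%) and 1922 lower (17.3%), and included all 1697. The count depended on DMXAA 1: it was 292 without that library, 290 higher and 2 lower. It was 938 without DMXAA 2 (705 higher, 233 lower), 768 without control 1 (696 higher, 72 lower) and 1318 without control 2 (918 higher, 400 lower). Genes called in all 4 of those fits numbered 289 (2.6%), of which 287 were higher. The lower 2, named after their values were seen, were 6430548M08Rik and Id1. With the libraries numbered 3 added, edgeR called 0 (717 at an unadjusted p under 0.05), or 26 with the block, all higher. The higher share of the calls, 71.4%, was 54.8% with the block and 27.4% when libraries were scaled by total counts alone, a scaling that moved the median of all genes to -0.58.

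**Figure D2:**
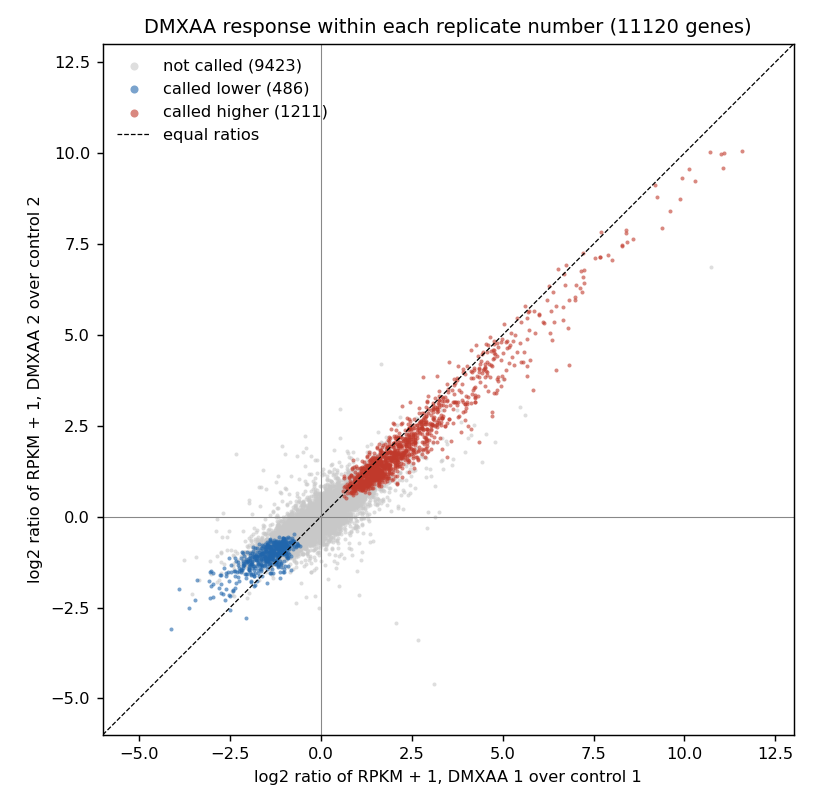
Log2 ratio of DMXAA over control, computed on RPKM + 1, in the pair numbered 1 (horizontal) and the pair numbered 2 (vertical), with 1 point for each of the 11120 tested genes. Red points were called higher, blue points lower and grey points not called. The called genes lie in the same direction in both pairs, with 825 tested genes at an absolute ratio of at least 2 in the pair numbered 1 and 513 in the pair numbered 2.

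**Figure D3:**
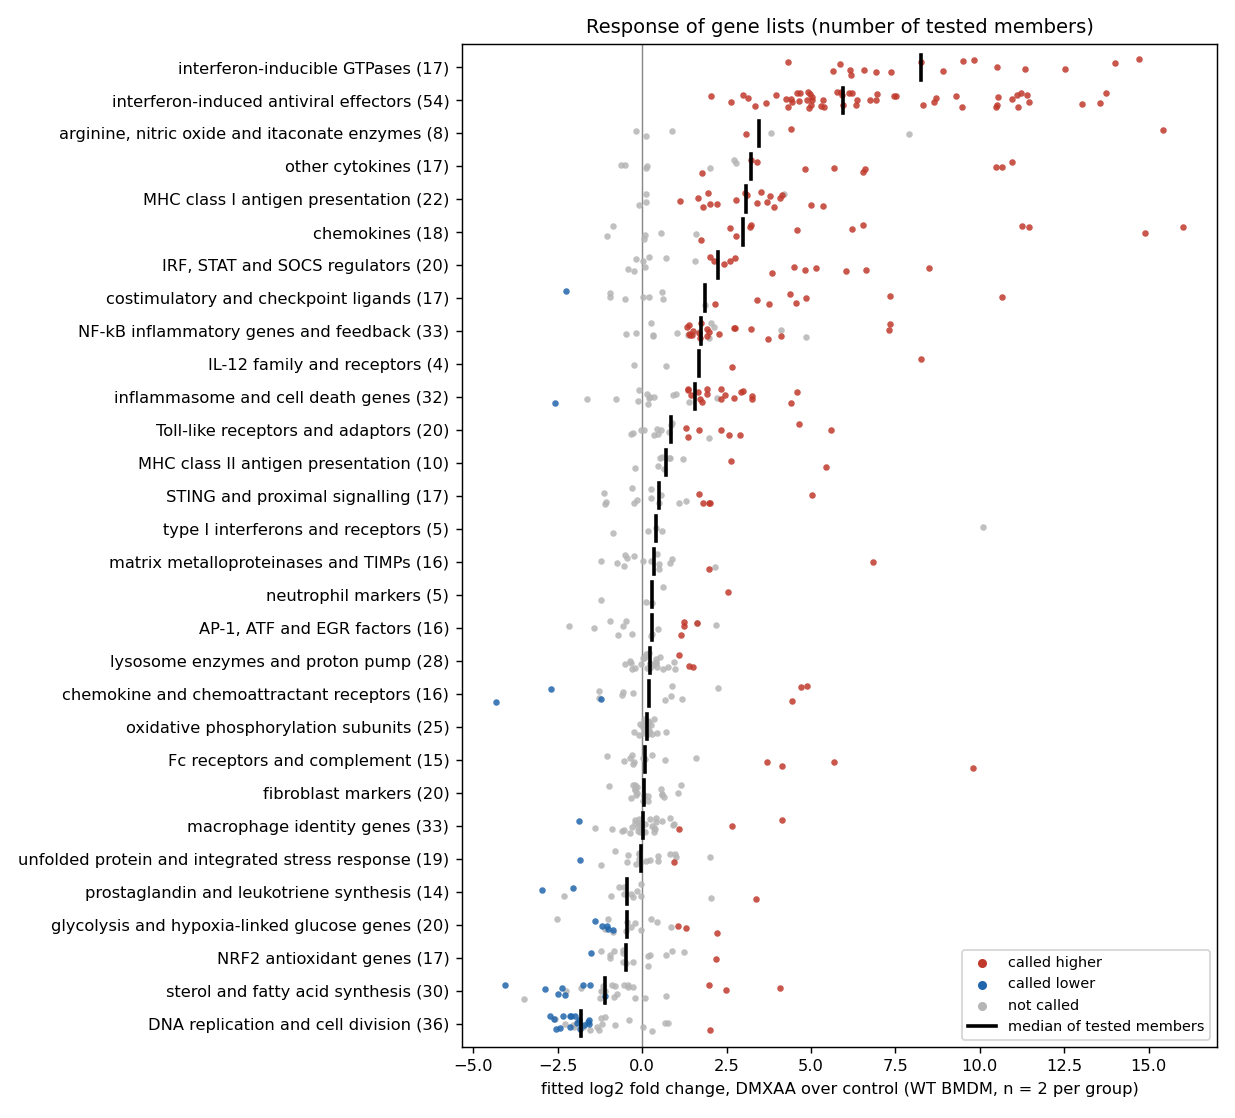
Fitted log2 fold change of the tested members of 30 gene lists, with 1 point per gene and a bar at the median of the list. Red points were called higher, blue points lower and grey points not called. The medians run from 8.27 for the interferon-inducible GTPases to -1.81 for the genes of DNA replication and cell division. Fitted values of genes without counts in control depend on the fit's prior count, and with those genes set at their lower bounds the medians are the same.

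The promoters of 6 genes from lists that rose are shown, because some of these lists differ in how often their promoters hold certain short motifs. Sequences are the bases before the RefSeq transcription start on GRCm38.p6, written on the strand of the gene, and capitals mark the matches. Isg15 lies at chr4:156200819-156200948 (minus strand), Rsad2 at chr12:26456453-26456582 (minus), Igtp at chr11:58199426-58199555 (plus), Cxcl10 at chr5:92348890-92349109 (minus), Irf1 at chr11:53769884-53770013 (plus) and Nfkbia at chr12:55492648-55492777 (minus).
Isg15: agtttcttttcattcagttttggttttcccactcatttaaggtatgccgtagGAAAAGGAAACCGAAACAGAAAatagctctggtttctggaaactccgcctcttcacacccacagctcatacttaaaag
Rsad2: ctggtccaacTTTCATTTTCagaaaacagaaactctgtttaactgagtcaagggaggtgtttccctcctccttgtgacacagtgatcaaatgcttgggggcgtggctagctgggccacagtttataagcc
Igtp: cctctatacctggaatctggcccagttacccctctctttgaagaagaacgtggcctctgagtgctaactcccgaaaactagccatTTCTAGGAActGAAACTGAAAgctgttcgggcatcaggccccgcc
Cxcl10: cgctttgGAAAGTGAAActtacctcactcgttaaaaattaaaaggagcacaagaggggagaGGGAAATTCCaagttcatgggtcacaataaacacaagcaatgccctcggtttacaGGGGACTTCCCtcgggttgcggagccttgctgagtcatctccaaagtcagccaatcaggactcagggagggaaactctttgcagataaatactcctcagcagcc
Irf1: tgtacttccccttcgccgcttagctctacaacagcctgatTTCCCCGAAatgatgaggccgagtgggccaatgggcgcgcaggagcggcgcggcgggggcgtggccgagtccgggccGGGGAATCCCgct
Nfkbia: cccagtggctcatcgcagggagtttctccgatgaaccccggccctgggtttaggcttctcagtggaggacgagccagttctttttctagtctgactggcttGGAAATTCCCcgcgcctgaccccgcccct
In Isg15 the capitals are 3 overlapping ISRE matches, 78 to 57 bases before the start, and in Rsad2 the capitals are 1 ISRE match on the other strand. In Igtp they mark a GAS match, the element of interferon-γ signalling, followed by an ISRE match. Cxcl10 holds an ISRE match 213 to 204 bases before the start and then matches to the NF-kB motif (kappa-B), of which the last pair overlap by 9 letters. Irf1 has a GAS and a kappa-B match, and Nfkbia a kappa-B match.

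The motifs were searched on both strands in the 300 bases around the start of 8125 tested genes with a RefSeq window, as GAAANNGAAA or TTTCNNTTTC for the ISRE, as TTCNNNGAA for GAS, and by its usual consensus for kappa-B. An ISRE match was present in 3.47% of these promoters (282), in 10.7% of those of genes called higher (98 of 916) and in 34.5% of those higher by at least 32-fold (40 of 116). Among genes called lower the share was 1.85% (7 of 378). By list, the ISRE was found in 22 of 42 antiviral promoters (52.4%) and in 9 of 10 promoters of interferon-inducible GTPases (90%). It was found in 4 of 19 MHC class I promoters (21.1%), 2 of 12 chemokine promoters (16.7%) and 2 of 25 NF-kB promoters (8.0%). A GAS match stood in 6 of the 10 GTPase promoters, against 6.57% of all promoters. Its share was 9.39% for genes called higher, 16.4% for those higher by at least 32-fold and 5.82% for genes called lower. A kappa-B match stood in 10.1% of all promoters, in 13 of 25 promoters of the NF-kB list (52.0%), in 8 of 19 of the MHC class I list (42.1%) and in 4 of 12 chemokine promoters (33.3%). The share was 19.0% for antiviral and 20.0% for GTPase promoters. It was 13.6% for genes called higher, 16.4% for those higher by at least 32-fold and 7.94% for genes called lower. Promoters of the cell division and sterol lists held an ISRE match in 1 of 29 and 0 of 21 cases and a kappa-B match in 2 and 1. A match describes these letters and is not evidence of binding.

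Genes of the STING pathway itself changed in part. Of 17 tested members, 5 were called higher and 0 lower, with a median of 0.51, and with the block 8 were higher and 3 lower. Tmem173 (ENSMUSG00000024349, chromosome 18, 35733678 to 35740554 on GRCm38) stood at 13.4 and 9.28 RPKM in control and 27.9 and 20.6 RPKM under DMXAA. Its groups did not overlap, but the change of 1.10 ± 0.29 was not called (adjusted p 0.0722, with the block 0.00485). Mb21d1, which encodes cGAS, had 5.62 and 2.55 RPKM in control and 10.3 and 10 RPKM under DMXAA and was likewise called with the block alone (adjusted p 0.107, with the block 0.0185). The STING kinase gene Tbk1 rose from 23 and 24 RPKM to 79.7 and 71.2 RPKM (1.68 ± 0.19, adjusted p 0.0125). Its relative Ikbke rose by 1.97 ± 0.25, the adaptor Tank by 2.02 ± 0.36 and Trim56, a ubiquitin ligase, by 1.8 ± 0.27. Ifi204, an interferon-inducible PYHIN protein that binds DNA, went from 16.1 and 16.3 RPKM to 584 and 479 RPKM (5.04 ± 0.25, adjusted p 0.00302). It belongs to a cluster of similar genes, so its counts are uncertain. Irf3, the factor that TBK1 phosphorylates, had 10.1 and 8.51 RPKM in control and 7.99 and 7.78 RPKM under DMXAA and was not called (-0.24 ± 0.21, adjusted p 0.488). Without DMXAA 1, 1 of the 17 was called, and without DMXAA 2, 3 were.

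Interferon transcripts themselves were scarce. Of the 17 interferon and receptor genes listed, 12 were too low to test, and of the 5 tested 0 were called by edgeR, 2 had an unadjusted p under 0.05, DESeq2 called 1 and the block 3. Ifnb1, which encodes interferon-β, had 0 counts in both controls, 21 counts (2.17 RPKM) in DMXAA 1 and 208 counts (17.4 RPKM) in DMXAA 2. That is a rise of at least 5.78 on the log2 scale when each control is set at a floor of 3 counts. The DMXAA libraries lay far apart, and the call needed the block (adjusted p 0.0559, with the block 0.00253). The listed interferon-α genes were at 0 in every library except for Ifna4, at 0.112 RPKM in DMXAA 2. The receptor chain Ifnar1 had 33.0 and 26.1 RPKM in control and 34.6 and 32.1 RPKM under DMXAA and was not called (0.17 ± 0.21, adjusted p 0.642). The interferon-γ receptor chain Ifngr1 was lower with the block alone, at 47.7 and 27.3 RPKM in control and 24.7 and 16.8 RPKM under DMXAA (-0.85 ± 0.36, adjusted p 0.184).

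The regulators that carry an interferon signal to the genome were higher. Of 20 tested IRF, STAT and SOCS genes, 12 rose and 0 fell, with a median of 2.26, and 8 of the 12 were called in every fit that left out 1 library. Irf7, which amplifies interferon production, went from 1.52 and 2.29 RPKM to 783 and 579 RPKM (8.48 ± 0.42, adjusted p 0.00302). Irf1, whose promoter is shown above, went from 5.49 and 6.74 RPKM to 167 and 181 RPKM (4.83 ± 0.25, adjusted p 0.00302). Of the ISRE-binding complex, Stat2 rose by 5.14 ± 0.49 and Irf9 by 2.41 ± 0.19. Socs1, the feedback inhibitor of JAK kinases, rose from 0.462 and 1.24 RPKM to 73.3 and 38.2 RPKM (6.03 ± 0.68, adjusted p 0.0118). Among the kinases, Jak2 rose by 3.84 ± 0.31 and Tyk2 by 2.60 ± 0.49, while Jak1 had 26.8 and 26.3 RPKM in control and 46.2 and 39.9 RPKM under DMXAA and was called with the block alone (0.70 ± 0.19, adjusted p 0.0797). Not every family member took part. Irf8, a factor of myeloid development, had 28.9 and 12.5 RPKM in control and 24.7 and 19.1 RPKM under DMXAA, with overlapping groups (0.08 ± 0.44, adjusted p 0.931), and Stat6, which serves interleukin-4, had 0.19 ± 0.26 (adjusted p 0.675).

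Every tested antiviral effector was called higher. Of 55 listed, 54 were tested and 54 were called higher, with a median of 5.94 and a range of 2.05 to 13.75. Of these, 13 were under 1 FPKM in both controls and could be tested only because they were high under DMXAA. The other 41 were also called higher, with a median of 5.04. Together the list took 0.124% and 0.134% of all counts in control and 8.64% and 6.91% under DMXAA. The count was 48 without DMXAA 1 and 54 when libraries were scaled by total counts.

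Among them, Isg15 (ENSMUSG00000035692), a ubiquitin-like modifier, stood at 3.96 and 12.6 RPKM in control and 3290 and 3330 RPKM under DMXAA (8.64 ± 0.76, adjusted p 0.0073). Control 2 was above control 1, as it was for Ifit1, Ifit3 and Rsad2, and both lay far below the treated libraries. Usp18, the protease that removes the modifier and dampens interferon signalling, went from 0.818 and 1.61 RPKM to 561 and 450 RPKM (8.70 ± 0.51, adjusted p 0.00337). Ifit1, which binds viral RNA that lacks the host cap, went from 0.59 and 1.67 RPKM to 1560 and 1710 RPKM (10.49 ± 0.72, adjusted p 0.00417). Rsad2, which encodes viperin, an enzyme that makes a chain-terminating nucleotide, went from 0.691 and 2.44 RPKM to 5160 and 3670 RPKM (11.46 ± 0.95, adjusted p 0.00642). Its neighbour on chromosome 12, Cmpk2, a mitochondrial nucleotide kinase, rose nearly alike, from 1.16 and 1.35 RPKM to 3580 and 2440 RPKM (11.22 ± 0.45, adjusted p 0.00302). Mx1, a dynamin-like GTPase that blocks influenza virus, rose from 0.26 and 0.34 RPKM to 765 and 595 RPKM (11.14 ± 0.39, adjusted p 0.00302).

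Sensors of nucleic acid sit on this list as well. Ifih1, the RNA sensor MDA5, went from 2.55 and 1.73 RPKM to 207 and 136 RPKM (6.33 ± 0.41, adjusted p 0.00373), and Ddx58, the RNA sensor RIG-I, from 2.6 and 2.68 RPKM to 188 and 127 RPKM. Zbp1, a sensor of left-handed nucleic acid that can start necroptosis, rose by 7.47 ± 0.41. Oas1a, an oligoadenylate synthetase that activates RNase L, was already at 15.9 and 19.3 RPKM in control and reached 398 and 302 RPKM (4.31 ± 0.28, adjusted p 0.0036). Some of the smaller rises were in genes already abundant in control. Ifitm3, which blocks entry of viruses through endosomes, went from 97.9 and 272 RPKM to 1520 and 1720 RPKM (3.13 ± 0.55, adjusted p 0.0302), with control 2 nearer to the treated libraries. Ifi27l2a had 32.2 and 23 RPKM in control and 122 and 107 RPKM under DMXAA (2.05 ± 0.26, adjusted p 0.0148). Counts of Ifit3b, Ifit1bl1 and the Oas, Slfn and PYHIN genes are uncertain because of similar neighbours. Slfn1, for which control held 1 to 3 counts in all, had a log2 ratio of 13.41 with a 95% counting interval of 10.94 to 18.72.

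**Figure D4:**
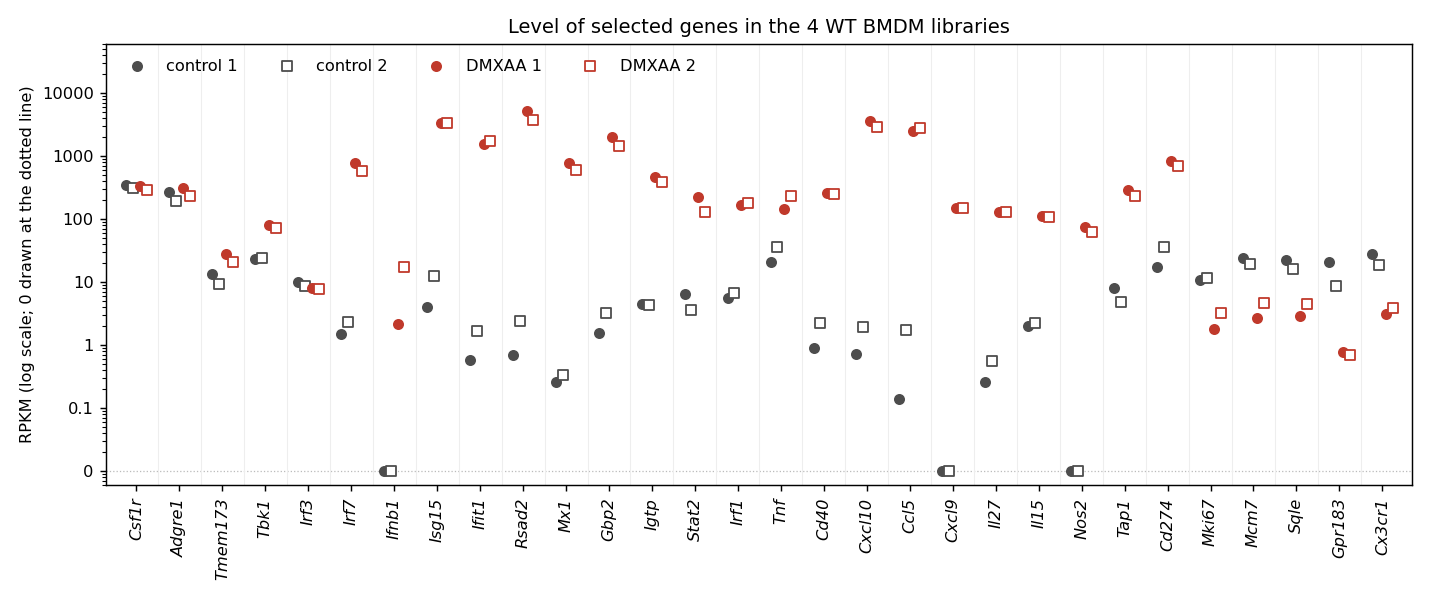
Level of 30 genes in the 4 libraries, as RPKM on a log axis with values of 0 drawn at the dotted line. Grey points are control and red points DMXAA libraries. Filled circles are the libraries numbered 1 and open squares those numbered 2. Cxcl9 and Nos2 are at 0 in both controls and at 148 and 152 RPKM and 74 and 61.2 RPKM under DMXAA, while Csf1r stays between 294 and 341 RPKM.

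The interferon-inducible GTPases, which attack the vacuoles of intracellular pathogens, had the highest median of all lists. Of 19 listed, 17 were tested and 17 were called higher, with a median of 8.27 and a lowest value of 4.32. Of the 17, 9 were under 1 FPKM in both controls, and the other 8 were called higher as well with a median of 6.75. Gbp2, a guanylate-binding protein, rose from 1.55 and 3.21 RPKM to 1990 and 1440 RPKM (9.49 ± 0.60, adjusted p 0.00356). Gbp5 rose from 0.155 and 0.087 RPKM to 388 and 240 RPKM (11.33 ± 0.57, adjusted p 0.00302). Gbp4 and Tgtp1 had no count in control and rose by at least 10.41 and at least 9.69 on the log2 scale, to 29.6 and 18.9 RPKM and to 46.9 and 22.0 RPKM. Igtp, an immunity-related GTPase whose promoter is shown above, rose from 4.54 and 4.28 RPKM to 462 and 383 RPKM (6.58 ± 0.26, adjusted p 0.00302). Irgm1, which regulates that family, rose from 4.7 and 5.65 RPKM to 256 and 269 RPKM (5.66 ± 0.26, adjusted p 0.00302). In most of these genes DMXAA 1 was above DMXAA 2, with Irgm1 and Ifi47 as exceptions among the more abundant ones. Members of the Gbp and Tgtp clusters are alike in sequence, so single counts are uncertain, and the list as a whole went from 0.0107% and 0.00987% of all counts to 1.45% and 1.17%.

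The NF-kB group rose less and depended more on single libraries. Of 33 tested genes, 20 were called higher and 0 lower, with a median of 1.74. With the block 28 were higher, and without control 1, DMXAA 2 or DMXAA 1 the number was 12, 9 or 4. The feedback inhibitors gave moderate rises. Nfkbia, the classical inhibitor and a direct target of NF-kB, went from 42.9 and 63.9 RPKM to 181 and 225 RPKM (1.93 ± 0.29, adjusted p 0.0213), and Nfkbie rose by 3.72 ± 0.31. Tnfaip3, which encodes the ubiquitin-editing enzyme A20, went from 11.2 and 13.1 RPKM to 33.1 and 36.4 RPKM (1.51 ± 0.20, adjusted p 0.0162). The receptor Cd40 and the adhesion molecule Icam1 rose most among the abundant members. Cd40 went from 0.893 and 2.27 RPKM to 263 and 253 RPKM (7.35 ± 0.59, adjusted p 0.0059) and Icam1 from 9.17 and 7.3 RPKM to 188 and 95.4 RPKM (4.10 ± 0.43, adjusted p 0.0101).

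Inflammatory cytokines were uneven. Tnf rose from 21.0 and 36.1 RPKM to 146 and 229 RPKM (2.72 ± 0.40, adjusted p 0.0205). Il6 had 0 and 0.0549 RPKM in control and stayed low at 4.6 and 5.01 RPKM under DMXAA, a log2 ratio of 7.45 with a 95% counting interval of 5.90 to 9.72 (adjusted p 0.0154). Il1b was below the level for a test, at 0.0469 and 0.256 RPKM in control and 0.65 and 0.394 RPKM under DMXAA. Ptgs2, the inducible cyclooxygenase, had 0.342 and 3.95 RPKM in control and 2.94 and 14.8 RPKM under DMXAA, so the groups overlapped and it was not called (2.05 ± 1.31, adjusted p 0.351). It was higher in both libraries numbered 2, the ones with more fibroblast-type RNA, as was Csf1, at 3.35 and 56.2 RPKM in control and 31.2 and 122 RPKM under DMXAA (adjusted p 0.556). The part of that RNA in these values was not tested.

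Of the IL-12 family, IL-27 stood out. Il27 (ENSMUSG00000044701), the p28 subunit, went from 0.263 and 0.565 RPKM to 131 and 128 RPKM (8.26 ± 0.41, adjusted p 0.00302). Its partner subunit Ebi3 was already present at 16.3 and 19.1 RPKM and reached 30.4 and 27.6 RPKM, which was called with the block alone (0.71 ± 0.21, adjusted p 0.0916). The subunits of IL-12 and IL-23 were at or near 0. Il12a had no count in any of the 4 libraries, Il12b had 0 and 0 RPKM in control and 1.1 and 0.606 RPKM under DMXAA, a rise of at least 3.65 on the log2 scale that was below the level for a test, and Il23a had 0 and 0.0395 RPKM in control and 0 and 0.0558 RPKM under DMXAA. The receptor chain Il12rb1 rose from 0.708 and 0.476 RPKM to 4.02 and 3.47 RPKM (2.66 ± 0.35, adjusted p 0.0157). In all, 4 of the 10 listed genes were tested and 2 were called higher, both of which were under 1 FPKM in both controls. Without DMXAA 1 the count was 1.

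The other cytokines were a mixed list. Il15, which sustains NK cells and memory T cells, rose from 1.98 and 2.28 RPKM to 112 and 109 RPKM (5.69 ± 0.23, adjusted p 0.00302), and the receptor chain that presents it, Il15ra, from 0.443 and 0.499 RPKM to 49.4 and 41.8 RPKM (6.59 ± 0.26, adjusted p 0.00302). Il18, which is matured by caspase-1, rose by 3.40 ± 0.45, and its secreted antagonist Il18bp by 4.83 ± 0.28. Tnfsf10, the death ligand TRAIL, went from 0.051 and 0.059 RPKM to 106 and 56.2 RPKM (10.49 ± 0.55, adjusted p 0.00303). Il10, an anti-inflammatory cytokine, had 0.615 and 0.407 RPKM in control and 1.66 and 2.49 RPKM under DMXAA and was called with the block alone (2.01 ± 0.49, adjusted p 0.0595). Il1rn, the interleukin-1 receptor antagonist, had 11.4 and 97.4 RPKM in control and 346 and 408 RPKM under DMXAA, and the gap between the controls kept it from being called (2.79 ± 1.02, adjusted p 0.139). Of 17 tested, 10 were called higher and 0 lower, with a median of 3.21. The 10 include Oasl1, an antiviral gene that is no cytokine, and 5 were called without DMXAA 1. Of the 17, 7 were under 1 FPKM in both controls and could be tested only through their DMXAA level. Of the other 10 tested genes, 4 were called higher, with a median of 2.24.

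Chemokines rose from very different control levels. The CXCR3 ligands, which draw activated T cells and NK cells, were switched on from almost nothing. Cxcl9 (ENSMUSG00000029417, chromosome 5, 92321347 to 92328079) had no count in control and 148 and 152 RPKM under DMXAA, at least 11.72 higher on the log2 scale (adjusted p 0.00302). Its neighbour Cxcl11 also had no count in control and 68.8 and 38.9 RPKM under DMXAA, at least 10.58 higher. Cxcl10 went from 0.735 and 1.93 RPKM to 3580 and 2940 RPKM (11.25 ± 0.72, adjusted p 0.0036). Ccl5, which attracts T cells and monocytes, went from 0.14 and 1.76 RPKM to 2510 and 2830 RPKM (11.45 ± 1.19, adjusted p 0.00993).

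The monocyte and macrophage chemokines rose from an existing base. Ccl2 rose from 57.2 and 78.4 RPKM to 411 and 412 RPKM (2.60 ± 0.25, adjusted p 0.00871), and Ccl7 from 38.3 and 68.2 RPKM to 538 and 459 RPKM (3.23 ± 0.36, adjusted p 0.0118). Ccl3 rose by 2.77 ± 0.38 and Ccl4 by 4.59 ± 0.22. The neutrophil chemokine Cxcl2 had 1.47 and 16.9 RPKM in control and 2.36 and 16.9 RPKM under DMXAA, so it followed the number and not the treatment (0.08 ± 1.36, adjusted p 0.976). Cxcl14 ran the other way, at 269 and 33.4 RPKM in control and 129 and 18.4 RPKM under DMXAA, lower within each number and called lower with the block alone (-1.03 ± 1.28, adjusted p 0.645). Of 18 tested chemokines, 12 rose and 0 fell, with a median of 2.99. Of the 18, 4 were under 1 FPKM in both controls and could be tested only through their DMXAA level. Of the other 14, 8 were called higher, with a median of 2.17. Without DMXAA 1 the count over all 18 was 6.

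Chemoattractant receptors moved both ways, 3 higher and 3 lower of 16 tested with a median of 0.20, or 6 and 5 with the block. Cx3cr1, the fractalkine receptor of monocytes and macrophages, fell from 27.7 and 18.4 RPKM to 3.1 and 3.94 RPKM (-2.71 ± 0.30, adjusted p 0.0118). Gpr183 (ENSMUSG00000051212, chromosome 14), a receptor for oxysterols that guides immune cells, fell from 20.9 and 8.63 RPKM to 0.779 and 0.695 RPKM (-4.32 ± 0.54, adjusted p 0.0146). C5ar1, the receptor for complement fragment C5a, fell from 215 and 201 RPKM to 78 and 100 RPKM (-1.22 ± 0.22, adjusted p 0.0322). The others called rose. Ccrl2, an atypical chemerin-binding receptor, rose by 4.89 ± 1.02, Fpr2, a formyl peptide receptor, by 4.70 ± 0.81 and P2ry14, a receptor for UDP-sugars, by 4.44 ± 0.38. Without DMXAA 1, 1 of the 16 was called, and without DMXAA 2, 3 were.

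Enzymes of arginine and itaconate metabolism rose in part. Nos2, the inducible nitric oxide synthase, had no count in control and 74 and 61.2 RPKM under DMXAA, at least 11.12 higher on the log2 scale (adjusted p 0.00303). Gch1, which makes the cofactor of that enzyme, rose by 3.08 ± 0.30, and Slc7a2, which imports arginine, by 4.42 ± 0.32. Acod1, which makes itaconate, had 0.392 and 19.3 RPKM in control and 2360 and 2370 RPKM under DMXAA. Its treated libraries were nearly equal, while the controls were far apart, so it was called with the block alone (7.90 ± 1.96, adjusted p 0.0633). Ass1, which regenerates arginine, was also called with the block alone, at 1.67 and 16.8 RPKM in control and 118 and 142 RPKM under DMXAA (3.82 ± 1.11, adjusted p 0.0876). Arg1 was too low to test, at 0.161 and 0.398 RPKM in control and 0.139 and 0.0281 RPKM under DMXAA. Of 8 tested members, 3 were called higher and 0 lower, or 6 with the block and 5 without either control library.

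MHC class I presentation rose as a group, from control levels that differed widely between its members. Of 22 genes listed and tested, 18 were higher and 0 lower, with a median of 3.08, and the list went from 0.794% and 0.849% of all counts to 1.85% and 1.88%. Without DMXAA 1 the count was 9. The peptide transporter Tap1 went from 7.93 and 4.81 RPKM to 293 and 228 RPKM (5.35 ± 0.39, adjusted p 0.00455). Nlrc5, the transactivator of these genes, went from 1.62 and 1.42 RPKM to 58 and 39.7 RPKM (5.01 ± 0.31, adjusted p 0.00356). Psmb9, an immunoproteasome subunit, went from 5.7 and 5.05 RPKM to 84.7 and 76.1 RPKM (3.90 ± 0.22, adjusted p 0.00303). The heavy chain H2-K1 went from 254 and 296 RPKM to 1120 and 998 RPKM (1.94 ± 0.23, adjusted p 0.0127), and the light chain B2m from 1090 and 1550 RPKM to 4560 and 4730 RPKM (1.81 ± 0.27, adjusted p 0.0217). The general chaperones of the endoplasmic reticulum on the list did not pass: Calr had -0.10 ± 0.22, Pdia3 0.11 ± 0.22 and Canx 0.12 ± 0.19, and the remaining member not called, H2-Q6, has near-identical relatives.

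MHC class II genes had a median of 0.72, and 2 of 10 tested were called higher and 0 lower, or 6 with the block. The called ones were transcription factors, and 1 of them, Ciita, was under 1 FPKM in both controls and could be tested only through its DMXAA level. Ciita, the class II transactivator, rose from 0.0141 and 0.0326 RPKM to 1.1 and 1.01 RPKM (5.45 ± 0.53, adjusted p 0.00882) and Rfx5 by 2.62 ± 0.37. Structural genes were not called, with H2-Ab1 at 4.02 and 6.48 RPKM in control and 11.7 and 12.6 RPKM under DMXAA (1.21 ± 0.33, adjusted p 0.0762) and Cd74, the invariant chain, at 25.7 and 33.6 RPKM and 47.6 and 54.9 RPKM (0.79 ± 0.23, adjusted p 0.0856). Neither overlapped between groups, and each was called with the block. Without DMXAA 1, 1 of the 10 was called.

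Ligands that tune T cells were split. Cd274, the checkpoint ligand PD-L1, went from 17.1 and 35.7 RPKM to 845 and 692 RPKM (4.86 ± 0.48, adjusted p 0.00899). Cd86, a ligand of CD28, went from 1.38 and 5.93 RPKM to 76.9 and 95.2 RPKM (4.56 ± 0.78, adjusted p 0.0288), while Cd80, which binds the same receptors, had 1.72 and 3.55 RPKM in control and 3.31 and 4.66 RPKM under DMXAA with overlapping groups (0.60 ± 0.45, adjusted p 0.424). Vsir, the checkpoint protein VISTA, was the called fall, from 72.5 and 50.2 RPKM to 9.97 and 15.8 RPKM (-2.25 ± 0.34, adjusted p 0.0226). Of 17 tested, 8 rose and 1 fell, or 10 and 3 with the block, and 4 were called without DMXAA 1.

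The endosomal receptors Tlr3 and Tlr9 led the Toll-like receptor list, in which 8 of 20 tested genes rose and 0 fell (median 0.86). Tlr3, which senses double-stranded RNA, went from 2.48 and 1.48 RPKM to 127 and 64.3 RPKM (5.59 ± 0.53, adjusted p 0.00869). Tlr9, which senses CpG DNA, went from 1.29 and 0.945 RPKM to 37 and 18.2 RPKM (4.63 ± 0.47, adjusted p 0.0094), and Tlr7, which senses single-stranded RNA, rose by 2.33 ± 0.40. At the surface, Tlr2 rose from 24.3 and 47.9 RPKM to 267 and 273 RPKM (2.90 ± 0.39, adjusted p 0.0167), while the endotoxin receptor Tlr4 had 6.91 and 6.19 RPKM in control and 14.4 and 8.42 RPKM under DMXAA (0.80 ± 0.31, adjusted p 0.158, called with the block). The shared adaptor Myd88 rose by 2.58 ± 0.23. The count was 5 without either control, 4 without DMXAA 2 and 3 without DMXAA 1.

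Of 32 tested inflammasome and cell death genes, 18 rose and 1 fell (median 1.55). Mlkl, the pore-forming effector of necroptosis, rose from 4.9 and 7.9 RPKM to 152 and 156 RPKM (4.59 ± 0.33, adjusted p 0.00451). Ripk3, the kinase that activates it, followed the number, at 6.19 and 13.4 RPKM in control and 10.9 and 26.2 RPKM under DMXAA, and was called with the block alone (0.92 ± 0.58, adjusted p 0.342). Casp1 rose from 38.1 and 30.3 RPKM to 385 and 263 RPKM (3.24 ± 0.30, adjusted p 0.00844). Casp4, the mouse sensor of cytosolic endotoxin, rose by 4.41 ± 0.55, Gsdmd, the pore protein of pyroptosis, by 2.34 ± 0.21 and the DNA sensor Aim2 by 2.92 ± 0.24. Bcl2, the survival factor, fell from 2.03 and 1.64 RPKM to 0.305 and 0.308 RPKM (-2.58 ± 0.29, adjusted p 0.0124). Its relative Mcl1 rose by 1.37 ± 0.30. Without DMXAA 1, 5 were called, all higher, and without control 1 or DMXAA 2 the rises numbered 12.

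Macrophage identity genes had a median of 0.01 over 33 tested genes, with 3 called higher and 1 lower, or 7 and 4 with the block. Without the block these counts were near the shares over all tested genes, 10.9% higher and 4.37% lower. Lyz2 had 8430 and 10100 RPKM in control and 5420 and 7210 RPKM under DMXAA and did not pass (-0.55 ± 0.28, adjusted p 0.25). Csf1r had 341 and 307 RPKM in control and 329 and 294 RPKM under DMXAA (-0.06 ± 0.21, adjusted p 0.895), and Adgre1 had 271 and 195 RPKM and 312 and 236 RPKM (0.24 ± 0.28, adjusted p 0.626), a difference that turned negative when scaled by total counts. Some transcription factors were exceptions. Spi1, the master regulator PU.1, rose from 143 and 137 RPKM to 343 and 255 RPKM (1.10 ± 0.24, adjusted p 0.0462) and Cebpa, a factor of myeloid differentiation, fell from 166 and 83 RPKM to 32.4 and 35.4 RPKM (-1.88 ± 0.39, adjusted p 0.042). Axl, a receptor for apoptotic cells, rose by 2.66 ± 0.51. Without control 1 or DMXAA 1, 1 gene was called, and without DMXAA 2, 2 were. Scaled by total counts, 2 were higher and 7 lower.

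Fc receptors did not move together. Fcgr1, the high-affinity receptor for IgG, rose from 45.2 and 26.9 RPKM to 811 and 449 RPKM (4.13 ± 0.47, adjusted p 0.0125). Fcgr4 rose from 17.2 and 17.2 RPKM to 229 and 221 RPKM (3.71 ± 0.20, adjusted p 0.00303), while Fcgr3 had 0.08 ± 0.25 and the inhibitory Fcgr2b -0.27 ± 0.23. Of the complement genes, C3 rose from 1.3 and 6.15 RPKM to 258 and 127 RPKM (5.69 ± 0.96, adjusted p 0.0279), and Cfb, its partner in the alternative pathway, had no count in control and rose by at least 5.51. The chains of C1q, a macrophage product, were not called, with values from -0.37 to 0.29. The list gave 4 higher and 0 lower of 15 tested, with a median of 0.08, and 2 without DMXAA 1.

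The groups that fell were those of growth. Of 36 genes of DNA replication and cell division, all tested, 16 were called lower and 1 higher, with a median of -1.81. In 31 of the 36 both DMXAA libraries lay lower than either control. The shares over all tested genes were 4.37% called lower and 31.2% lower without overlap. With the block 30 were lower and 3 higher. The count of falls was 12 without control 2 and 18 without DMXAA 2, but 3 without control 1 and 0 without DMXAA 1, which had the lower values in most of these genes. Mki67, the proliferation marker, went from 10.6 and 11.5 RPKM to 1.77 and 3.21 RPKM (-2.15 ± 0.34, adjusted p 0.0244). Mcm7, a subunit of the replicative helicase, went from 24.1 and 19.3 RPKM to 2.71 and 4.66 RPKM (-2.56 ± 0.34, adjusted p 0.0162). Mcm2 had -2.74 ± 0.56 and the licensing factor Cdc6 -2.62 ± 0.35. Top2a, the mitotic topoisomerase, was called with the block alone, at 14.1 and 14.2 RPKM in control and 1.94 and 5.45 RPKM under DMXAA (-1.93 ± 0.52, adjusted p 0.0751). Not all replication genes fell. Mcm6 had 0.03 ± 0.29, and the sliding clamp Pcna had 264 and 172 RPKM in control and 363 and 329 RPKM under DMXAA (0.67 ± 0.28, adjusted p 0.179, called with the block). The called rise was Cdkn1a, which encodes the cell cycle inhibitor p21, from 44.5 and 46.7 RPKM to 208 and 157 RPKM (2.0 ± 0.23, adjusted p 0.0128).

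Sterol and fatty acid synthesis fell in part. Of 30 tested genes, 8 were called lower and 3 higher, with a median of -1.09, or 19 and 4 with the block. Without control 1 or DMXAA 2 the falls numbered 4, and without DMXAA 1 they numbered 0. Sqle, the squalene epoxidase, went from 22.7 and 15.9 RPKM to 2.91 and 4.49 RPKM (-2.38 ± 0.33, adjusted p 0.0179). Elovl6, which lengthens fatty acids, had -4.07 ± 0.71. The 3 called higher do not make sterols from acetate but sense, oxidise or export them. Ch25h, which makes 25-hydroxycholesterol, rose from 5.27 and 2.24 RPKM to 83.4 and 44.9 RPKM (4.09 ± 0.58, adjusted p 0.0189), the exporter Abcg1 by 2.47 ± 0.38 and Nr1h3, the oxysterol receptor LXRα, by 1.99 ± 0.37.

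Glycolysis and prostaglandin genes went both ways. Of 20 tested glycolysis genes, 3 rose and 5 fell (median -0.46), or 4 and 8 with the block. The regulator Pfkfb3 rose from 7.07 and 11.1 RPKM to 50.8 and 34.9 RPKM (2.23 ± 0.34, adjusted p 0.0229) and Hk1 by 1.31 ± 0.20, while the lactate exporter Slc16a3 fell from 19.4 and 31.9 RPKM to 8.92 and 10.5 RPKM (-1.40 ± 0.31, adjusted p 0.0478) and Pdk1 had -1.18 ± 0.20. Of 14 tested prostaglandin and leukotriene genes, 1 rose and 2 fell, or 2 and 5 with the block. Over all tested genes 10.9% were called higher and 4.37% lower, or 21.0% and 17.3% with the block, so such small counts say little about either list. Ptges, which makes prostaglandin E2, rose from 0.933 and 3.96 RPKM to 26.8 and 24 RPKM (3.37 ± 0.73, adjusted p 0.0462). The constitutive cyclooxygenase Ptgs1 fell from 9.56 and 5.6 RPKM to 1.66 and 1.97 RPKM (-2.06 ± 0.36, adjusted p 0.0293) and is among the genes left out as fibroblast-type in that alternative, and Alox5, the first enzyme of leukotriene synthesis, had -2.96 ± 0.42. With any of the 4 libraries left out, at most 1 glycolysis gene was called in either direction, and without DMXAA 1 none of the genes in these 2 lists was called.

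The remaining lists had few calls. Over all tested genes 10.9% were called higher and 4.37% lower, or 21.0% and 17.3% with the block. The lysosome and metalloproteinase counts without the block were near the higher share, so they say little about those lists. Of 25 tested subunits of oxidative phosphorylation, edgeR called 0, 1 had an unadjusted p under 0.05, DESeq2 called 1, and the median was 0.14. Lysosome genes had a median of 0.22 with 3 of 28 higher, among them Npc2, which binds cholesterol in the lysosome, from 158 and 204 RPKM to 496 and 537 RPKM (1.51 ± 0.24, adjusted p 0.0249), and 7 were higher and 1 lower with the block. The NRF2 antioxidant list had 1 higher and 1 lower of 17 (3 and 7 with the block) and a median of -0.48. These were Keap1, the inhibitor of NRF2, at 2.18 ± 0.24 and Gclc, the first enzyme of glutathione synthesis, at -1.53 ± 0.27. The unfolded protein list had 1 higher and 1 lower of 19 (2 and 2 with the block), the chaperone Hspa5 at 0.94 ± 0.20 and the kinase gene Eif2ak3 at -1.83 ± 0.33. Of 16 tested AP-1, ATF and EGR factors 4 rose, among them Klf6 (1.61 ± 0.23), Junb (1.24 ± 0.21) and Atf3 (1.23 ± 0.19), and of 16 matrix metalloproteinase and TIMP genes 2 rose, Mmp25 (6.83 ± 0.73) and the collagenase Mmp13 (1.98 ± 0.24). Without DMXAA 1 none of the genes of these lists was called except 1 metalloproteinase. The lysosome list also had 0 calls without control 1 or DMXAA 2 and 1 without control 2, and the AP-1 list had 0 without control 1 and 2 falls in place of its rises without DMXAA 2. Scaled by total counts, the lysosome list had 2 rises and 4 falls, the AP-1 list 1 and 2, and the NRF2 list 1 and 6.

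By size alone, the largest fitted rises were Cxcl9, Nos2, Cxcl11, Gbp4, Ifi208, Tgtp1, Ifit1bl1, Ifit3b, Slfn1 and Iigp1. The first 4 and Tgtp1 had no count in control, so their order is not settled. The largest falls were far smaller and fell in genes of varied function. Pald1, which encodes a paladin phosphatase, went from 10.6 and 4.86 RPKM to 0.41 and 0.235 RPKM (-4.58 ± 0.57, adjusted p 0.0146), and Rab3il1, an exchange factor for a Rab GTPase, from 35.6 and 19.7 RPKM to 1.13 and 1.41 RPKM (-4.45 ± 0.40, adjusted p 0.00759). After Gpr183 came Zfp395 (-3.98 ± 0.63), then Sesn1, a p53 and FOXO target that restrains mTORC1, from 25.2 and 9.5 RPKM to 0.759 and 1.64 RPKM (-3.85 ± 0.67, adjusted p 0.0293). The transcription factor gene Etv5 had -3.53 ± 0.50, Cdca7 -3.37 ± 0.53 and Sema6b -3.29 ± 0.33. In each of these falls control 1 was above control 2, by more than 2-fold in Pald1, Gpr183, Zfp395, Sesn1 and Etv5. The fall of 6430548M08Rik, from 6.37 and 5.08 RPKM to 0.445 and 0.577 RPKM (-3.48 ± 0.29, adjusted p 0.0067), was called whichever library was left out.

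The CRE label gave a comparison within the same cell type. In BMDMs Tmem173 had 25.4 and 21.2 CPM in the CRE controls and 18.7 and 20.7 CPM in the CRE DMXAA libraries, against 37.9 and 25.4 CPM and 50.3 and 40.5 CPM in WT. The groups did not overlap under DMXAA, but the transcript was far from 0 in the CRE label. The response of WT minus that of CRE was tested in 11569 genes, and edgeR called 424 (3.66%), 264 positive (2.28%) and 160 negative (1.38%), with 1702 called with the block and 217 to 1347 when 1 library was left out. There were 217 calls without WT DMXAA 1, 1347 without WT DMXAA 2 and 1267 without WT control 2. The fit pools the spread of both labels. The CRE libraries spread less than the WT libraries, so the pooled estimate can understate the error of the WT response. The SEs and adjusted p-values of this difference share that limit. Sharing the spread in this way raised the calls of the WT response itself from 1697 to 4478.

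Several lists that rose in WT held positive calls, although most of the 264 lay outside the lists. In the NF-kB list 10 of 33 were positive and 0 negative, with a median difference of 1.2 against -0.04 over all genes tested, and in the antiviral list 7 of 54 and 0 (median 1.09, 29 positive with the block). Among GTPases 5 of 17 were positive (median 1.84, 12 with the block), among MHC class I genes 5 of 22 (median 1.05, 13 with the block) and among other cytokines 6 of 17 (median 1.35). The response of the CRE label was itself sizeable, with medians of 4.64 for antiviral genes and 5.99 for GTPases where WT had 5.94 and 8.27, and of 0.55 for NF-kB genes where WT had 1.74. Il27 differed by 6.16 ± 0.42 (adjusted p 0.00408), rising in deposited mean FPKM from 0.446 to 145 in WT and from 0.943 to 3.97 in CRE. Il15ra differed by 4.49 ± 0.30 (adjusted p 0.00408), and Ch25h by 4.93 ± 0.72 (adjusted p 0.0224), from 4.08 to 72.4 in WT and from 2.36 to 1.29 in CRE. Among cell division genes 2 of 36 were negative and 0 positive (median -0.91).

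BMDCs of the WT label, grown with GM-CSF and IL-4, gave a comparison of cell type. Of 12708 genes tested, 211 (1.66%) responded differently, 169 with a higher value in BMDMs (1.33%) and 42 with a lower one (0.331%), 1279 with the block, 107 without BMDM control 1 and 63 without BMDM DMXAA 1. Of the GTPases 10 of 18 were called positive, with a median difference of 3.07 against a median of 0.00 over all genes tested. MHC class I genes had 6 positive of 22 (median 1.05) and antiviral genes 10 positive and 1 negative of 54 (median 0.77). Nos2 rose from 0 to a deposited mean FPKM of 76 in BMDMs, against 1.8 to 118 in BMDCs, and its called difference (adjusted p 0.0191), taken against no count in control BMDMs, is no bound. Gpr183 moved in opposite directions, from 16 to 0.828 in BMDMs against 3.94 to 9.83 in BMDCs, a difference of -5.62 ± 0.56 (adjusted p 0.00192).

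**Figure D5:**
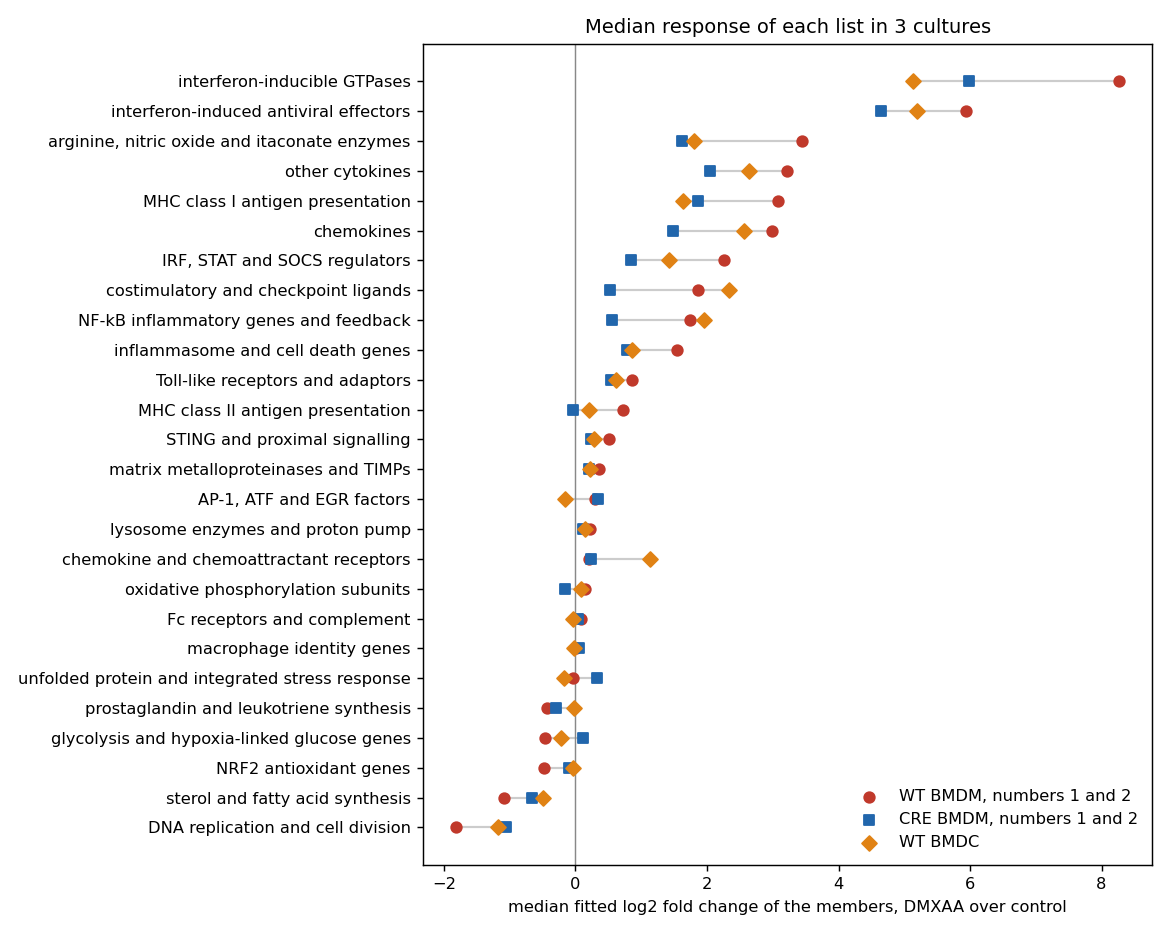
Median fitted log2 fold change of DMXAA over control for lists with at least 8 tested genes, in WT BMDMs, CRE BMDMs and WT BMDCs, with 1 point per culture and list. In the GTPase list the medians are 8.27, 5.99 and 5.14, in the NF-kB list 1.74, 0.55 and 1.95, and in the cell division list -1.81, -1.05 and -1.18.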

How the data were processed

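PolyA RNA of BMDMs and BMDCs was sequenced as 24 libraries in 8 groups of 3, and groups were taken from the labels. The authors deposited raw counts of 54532 genes and FPKM values scaled by gene length and library size, and all per-library columns were matched to a library (0 unmatched). The submitters' processing notes name CASAVA 1.8, fastp, HISAT2 2.0.5, featureCounts 1.5.0-p3, DESeq2 1.20.0 and GRCm38/mm10. The strand setting is not given in the sources used here, and the NEBNext Ultra kit named in the labels does not mark strand, so reads of a gene and its antisense partner cannot be told apart. Another 60 columns hold the authors' group means, log2 fold changes and p-values and were not used.

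Counts were tested with edgeR 4.0.16 (quasi-likelihood, two-sided) in R 4.3.3, with TMM scaling, in genes with a deposited FPKM of at least 1 in at least 2 of the libraries fitted, at an adjusted p under 0.05. The response used control and DMXAA libraries 1 and 2 of the WT label. The differences from the CRE label (8 libraries) and from BMDCs (10 libraries) were interaction terms. RPKM was computed from counts, the deposited gene length and the TMM-scaled library size. The floor was 3 counts per library, and intervals for 1 to 3 counts were exact Poisson intervals at 95%, which cover counting error only. TMM factors were 1.24 and 1.2 in control and 0.786 and 0.856 under DMXAA. Replicates differed by more than sampling noise (chi-square per degree of freedom 107 and 76.7). The edgeR biological coefficient of variation was 34.8%, and 17.8% with the label number as a block. Same-numbered control and DMXAA libraries deviated together, with correlations of 0.806, 0.881 and 0.874 for numbers 1, 2 and 3, and 0.677 over numbers 1 and 2 alone. This was taken as pairing although no label gives its meaning. The values cannot show paired cultures, since both libraries numbered 3 nearly lacked macrophage transcripts and both numbered 2 held more fibroblast-type RNA.

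Genes named in the text are a fixed set, the 3 largest called changes of each list, the 10 largest called rises and falls (groups not overlapping, mean FPKM 5 or more in the higher one), and the 5 largest values per direction of each interaction. The libraries, gene lists and this rule were chosen with earlier results of these data known. Other named members are given by value to fill out a list. Some genes that meet the rule are not reported here. Alternatives covered scaling, filters, DESeq2 1.42.0, limma 3.58.1 on log2(FPKM + 1) and log2(FPKM + 0.1), the study's threshold, the block, other sets of libraries and leaving out each library. On simulated counts for the response (11120 genes, 50 changed per fold size) 2%, 52%, 82% and 88% of genes changed 2-, 4-, 8- and 16-fold were recovered, and 6 of 118 calls were false. Promoters are RefSeq windows of 300 bases on GRCm38.p6, matched by symbol for 8125 of 11120 tested genes. Figures were drawn with matplotlib 3.10.9 in Python 3.11.15.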

Additional observations from a re-analysis of the deposited data

Results flagged for a closer look

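The genes below were picked out because the DMXAA response of WT BMDMs differed from that of another culture by an interaction term in edgeR, among the 5 largest called values in each direction. Values are differences of log2 fold changes ± SE. Those against CRE BMDMs rest on the pooled spread, which can understate the error of the WT response. None of them was weighed for a cause.

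Against CRE BMDMs, the response was larger in WT for Tnfaip8l3 (7.07 ± 1.09, adjusted p 0.0271), which binds phosphoinositides, and for Il27 (6.16 ± 0.42, adjusted p 0.00408). It was also larger for Ch25h (4.93 ± 0.72, adjusted p 0.0224), for Calhm6 (4.59 ± 0.58, adjusted p 0.0192) and for Il15ra (4.49 ± 0.30, adjusted p 0.00408). Calhm6, a member of a family of ion channels, rose in deposited mean FPKM from 0.599 to 375 in WT and from 0.632 to 15.5 in CRE. The difference was negative for Rab3il1 (-3.49 ± 0.40, adjusted p 0.0154), 6430548M08Rik (-3.08 ± 0.25, adjusted p 0.00863), Etv5 (-2.94 ± 0.53, adjusted p 0.0381), Gm28875 (-2.63 ± 0.44, adjusted p 0.034) and Id1 (-2.54 ± 0.33, adjusted p 0.0193). Id1, an inhibitor of helix-loop-helix factors, went from a mean FPKM of 69.5 to 13 in WT and from 57.5 to 58.6 in CRE.

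Against WT BMDCs, the response was larger in BMDMs for Rasgrp1 (9.46 ± 1.36, adjusted p 0.015), Nos2 (9.41 ± 1.47, adjusted p 0.0191), Tnfaip8l3 (8.92 ± 0.89, adjusted p 0.00192), Slfn1 (8.89 ± 1.18, adjusted p 0.00786) and Tgtp1 (8.62 ± 1.25, adjusted p 0.015). Rasgrp1, Nos2 and Tgtp1 had no count in control BMDMs, and Slfn1 and Tnfaip8l3 had 1 or 2 in all, so these fitted sizes, and that of Tnfaip8l3 against CRE, depend on the prior count and are no bounds. Tnfaip8l3 went from a mean FPKM of 0.0105 to 5.07 in BMDMs, against 6.3 to 5.25 in BMDCs. The difference was negative for Gpr183 (-5.62 ± 0.56, adjusted p 0.00192), Lrp8 (-4.52 ± 0.66, adjusted p 0.013), Ankrd24 (-3.48 ± 0.52, adjusted p 0.013), which in BMDMs was too low to test and entered through its level in BMDCs, Rhob (-3.43 ± 0.38, adjusted p 0.00376) and Tnfsf9 (-3.13 ± 0.44, adjusted p 0.01). Rhob, a small GTPase, went from a mean FPKM of 131 to 48.9 in BMDMs, against 53.6 to 212 in BMDCs. Tnfsf9, the ligand of 4-1BB, went from 6.43 to 4.73, against 2.87 to 18.1.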

How the results depend on the processing

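The 1697 calls of the WT BMDM response became 3313 with total count scaling, 2842 with DESeq2, 2712 at the study's threshold (unadjusted p with an absolute log2 fold change of at least 1) and 4256 with the replicate block. They became 4478 when the spread was shared with the CRE libraries (8 BMDM libraries) and 7130 without WT number 2 in that fit. With the libraries numbered 3 added, edgeR called 0 (717 at an unadjusted p under 0.05), and 26 with the block as well. Leaving out 1 library gave 292 to 1318. Median of ratios scaling, other filters and limma stayed within 1.5 times, as did leaving out fibroblast-type genes, which gave 2091. The WT minus CRE difference (424) became 1195 with DESeq2, 1702 with the block and 217 to 1347 leaving out 1 library. The WT BMDM minus BMDC difference (211) became 674, 1279 and 63 to 275.

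Among single genes, 1518 results kept direction and call, 289 lost the call, 35 gained it and 6 reversed. The reversed were Ptgs1 (0.1) with number 3 added, Lyz2 (0.31) with number 3 and the block, Adgre1 under total counts (-0.35) and without control 2 (-0.04, against up to 0.48 without another library), and Csf1r without control 1 (0.02) or DMXAA 2 (0.02), against down to -0.19 without another. The causes were not tested. The block added calls for 5 of the genes named by rule and changed no other call among them. Of counts of list members called, 396 stayed within 1.5 times and 231 did not. With 2 libraries per group, 2% of the 2-fold changes made in simulated data were recovered for this response. That share does not carry over to the real data. The simulation gave 118 calls against 1697 for the real libraries, so its cut-off on the unadjusted p was stricter. Near 2-fold, Hspa5 (0.94 ± 0.20) and Lamp2 (1.09 ± 0.21) were called in the real data, while Tmem173 (1.10 ± 0.29) was not.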
